A study of Mus musculus with 3 samples.

Results

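The expression of 9 genes of fatty acid uptake and lipoprotein handling was read across 3 stromal cell populations of the mouse mesenteric lymph node, the node that drains the gut. The 9 genes (Cd36, Fabp3, Fabp4, Fabp5, Gpihbp1, Lpl, Lipg, Scarb1 and Vldlr) were taken by the gene name in the scanner files, with every probe shown. They are represented by 14 of 41156 probes and are 9 of 28076 named genes. Cd36, Lpl and Vldlr have several probes, as does Fabp4.

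Cells came from wild-type C57BL/6NCrl mice, whose age, sex and diet are not given in the labels, and no group received a treatment. Fibroblastic reticular cells (FRC, gp38+ CD31-) are the fibroblasts of the node, lymphatic endothelial cells (LEC, gp38+ CD31+) line its lymph channels, and blood endothelial cells (BEC, gp38- CD31+) line its blood vessels. All 3 were sorted as CD45- CD24- cells after collagenase digestion, and the labels put the mean purity of the subsets at 88% ± 1.5 without saying how many mice or sorts gave each RNA. Each population was hybridised to 1 single-colour array, without replicates. No difference was tested, and the 4-fold threshold used here is a description. Both comparisons with FRC share the FRC array.

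Dietary triglyceride travels in lipoprotein particles, and lipoprotein lipase at the capillary wall splits it into fatty acids. The lipase is made by cells of the parenchyma, such as adipocytes and muscle, and is carried to the vessel lumen by the endothelial protein GPIHBP1. Fatty acids then enter cells with the help of the membrane protein CD36 and are bound inside by small fatty acid-binding proteins, while whole particles and their lipids are taken up through receptors such as SR-B1 and the VLDL receptor.

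The 5 probe sequences printed here belong to the 4 genes that separated FRC from both endothelial populations by at least 4-fold. For Fabp4, probes 1 and 3 are shown because they fell on different sides of that threshold between LEC and BEC. They are the sequences of the array itself, read from the files 5′ to 3′ in lower case with no part marked.
Cd36 probe 2: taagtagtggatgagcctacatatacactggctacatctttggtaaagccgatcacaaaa
Fabp4 probe 1: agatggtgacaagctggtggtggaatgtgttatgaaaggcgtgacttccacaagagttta
Fabp4 probe 3: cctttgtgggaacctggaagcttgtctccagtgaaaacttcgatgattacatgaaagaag
Gpihbp1 probe 1: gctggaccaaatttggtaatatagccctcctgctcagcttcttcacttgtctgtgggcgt
Lpl probe 2: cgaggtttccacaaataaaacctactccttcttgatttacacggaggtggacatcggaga
Of the 13 probes compared with the rest of the array, 7 shared no run of 15 or more bases with a probe of another gene name, on either strand. The longest run found, in Vldlr probe 2, was 16 of its 60 bases.

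Each value is a level on the log2 scale, the processed signal minus its array's 75th percentile, so 0 is the signal that 75% of probes stay under. A probe counted as well above background where the scanner software marked it so. This held for 60.5% (FRC), 59.7% (LEC) and 60.1% (BEC) of the probes. No spot was saturated. Probes spotted repeatedly had a median SD between spots of 0.05 to 0.06, which is spot error alone. Per the file headers, the spike-in slope of the FRC array was 0.821, outside the range the scanner software accepts, against 1.00 for LEC and 0.919 for BEC. The labelled populations were read against marker lists. Of 8 FRC markers, 7 were at least 4-fold higher in FRC than in LEC and 8 than in BEC. Of 8 LEC markers, LEC exceeded FRC for 6 and BEC for 5, but Ccl21a, a chemokine gene, was lower in LEC (6.02) than in FRC (8.66) or BEC (8.82). The summed signal of this list over the 75th percentile was 406 in FRC, 272 in LEC and 488 in BEC, lowest in LEC. Most of that sum in FRC and BEC was Ccl21a. The median level of the list was highest in LEC, at 2.93, against -2.63 in FRC and 1.29 in BEC. Of 8 BEC markers, BEC exceeded FRC for 7 and LEC for 5, while Cd34 was alike in FRC and BEC, at 7.12 and 7.66. Its LEC level was 3.70, so FRC exceeded LEC.

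**Figure D1:**
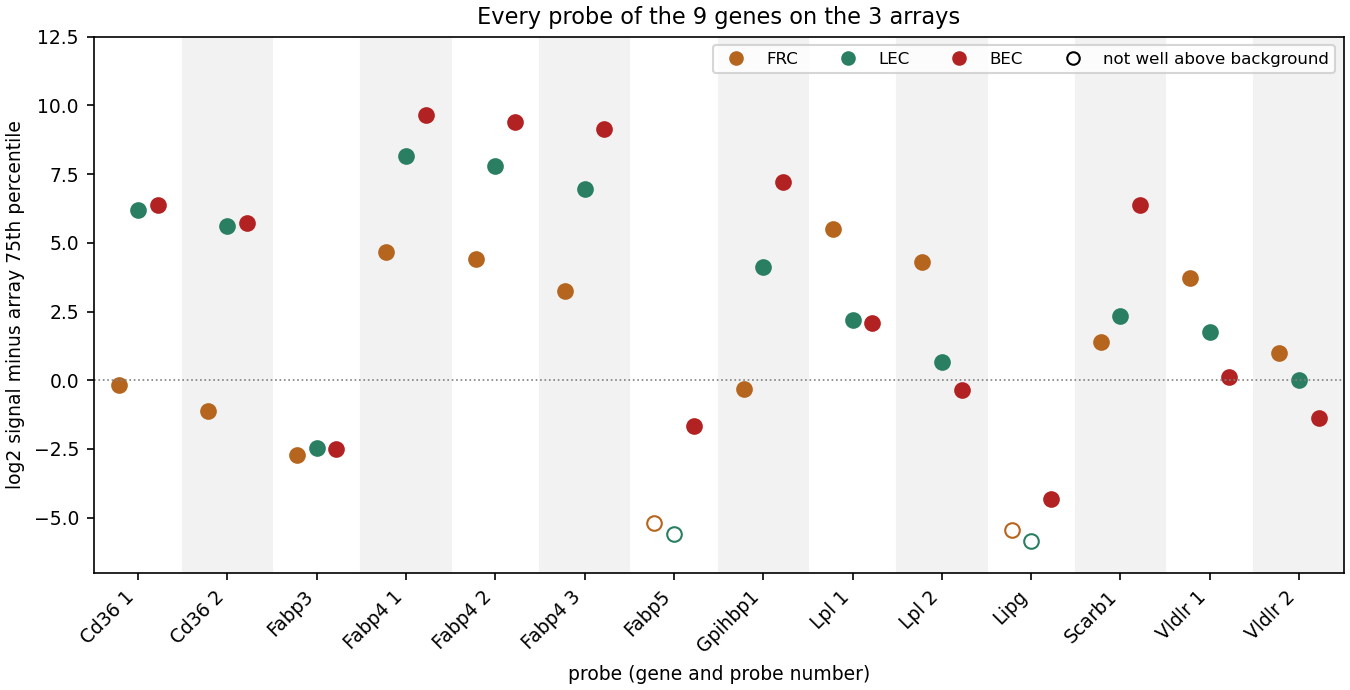
Level of every probe of the 9 genes (horizontal axis: gene and probe number) on the FRC, LEC and BEC arrays (vertical axis: log2 signal minus the array's 75th percentile); each point is 1 array and there are no error bars because there is 1 array per population. Cd36, Fabp4 and Gpihbp1 lie lowest in FRC, Lpl and Vldlr lie highest in FRC, Scarb1 stands apart in BEC, and Fabp3 lies between -2.71 and -2.48 on all 3 arrays.

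Of the 9 genes, the most strongly separated between LEC and FRC was Cd36, which encodes the fatty acid translocase. Cd36 probe 1 (build mm9, chr5:17288600-17288659, minus strand) read -0.18 in FRC, 6.20 in LEC and 6.38 in BEC. Cd36 probe 2, whose 60 bases are spread over chr5:17289110-17291542 on the minus strand, read -1.13 in FRC, 5.61 in LEC and 5.72 in BEC. Both probes were high in the endothelial populations and low in FRC. The log2 difference from FRC was 6.39 in LEC and 6.56 in BEC by probe 1, and 6.74 and 6.85 by probe 2. Only 37 of 18440 genes had a larger LEC minus FRC difference, and 69 of 18830 a larger BEC minus FRC difference. LEC and BEC lay within 0.17 of each other by probe 1 and within 0.11 by probe 2, a ratio of 1.13 by the brighter probe.

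Among the fatty acid-binding proteins, Fabp4, the form of adipocytes and capillary endothelium, was high in both endothelial populations and highest in BEC. Fabp4 probe 1, spread over chr3:10204533-10205262 on the minus strand, read 4.68 in FRC, 8.17 in LEC and 9.67 in BEC. Probe 2 (chr3:10204452-10204511) read 4.41, 7.80 and 9.40, and probe 3 (chr3:10208442-10208501) read 3.26, 6.97 and 9.13, in the same order. The order FRC, LEC, BEC was thus the same by each probe, and the FRC array was itself far above background. The log2 difference of LEC from FRC was between 3.39 and 3.71 over the probes, and that of BEC from FRC between 4.99 and 5.86. BEC exceeded LEC by 2.83-fold for probe 1, and the log2 difference LEC minus BEC was -1.50, -1.60 and -2.16 for the 3 probes. Probe 3 alone therefore passed the 4-fold threshold between LEC and BEC.

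Fabp3, the heart-type binding protein, differed little between the arrays. Its probe (chr4:129992608-129992667, plus strand) read -2.71 in FRC, -2.48 in LEC and -2.49 in BEC, all well above background. The largest ratio among the 3 arrays was 1.17. Fabp5, the epidermal form, which is also found in capillary endothelium, was well above background only on the BEC array. Its probe (chr3:10016373-10016432, plus strand) read -1.67 in BEC, against -5.22 in FRC and -5.58 in LEC, where it was not well above background. Setting the dim arrays at their lowest signal well above background, as is done for each bound, BEC was at least 6.36-fold higher than FRC and at least 5.77-fold higher than LEC. The files annotate this probe with a GenBank mRNA and not with a RefSeq entry.

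The lipase Lpl and its carrier Gpihbp1 had opposite patterns. Lpl, which encodes lipoprotein lipase, was highest in FRC: probe 1 (chr8:71430267-71430326, plus strand) read 5.51 in FRC, 2.20 in LEC and 2.10 in BEC. Lpl probe 2 (chr8:71425050-71425109, plus strand) read 4.30 in FRC, 0.67 in LEC and -0.34 in BEC. Both probes gave an FRC level far over the endothelial ones, and all 6 readings were well above background. The LEC minus FRC difference was -3.30 by probe 1 and -3.63 by probe 2, and the BEC minus FRC difference -3.41 and -4.64. LEC and BEC were 0.11 apart by probe 1 and 1.01 apart by probe 2, LEC being the higher.

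Gpihbp1, which encodes the endothelial carrier of the lipase, ran in the opposite order. Its 1 probe (chr15:75428484-75428543, plus strand) read -0.33 in FRC, 4.10 in LEC and 7.22 in BEC. The gene was lowest where Lpl was highest, and LEC lay between the other populations. Its LEC level exceeded that of FRC by 4.43 in log2 units (21.5-fold), its BEC level by 7.55, and BEC was 8.70-fold above LEC. Of all genes, 26 had a larger BEC minus FRC difference and 179 a larger LEC minus FRC difference. Lipg, the endothelial lipase, was barely detected. Its probe (chr18:75099629-75099688) read -4.34 in BEC, at the margin of detection, and -5.44 in FRC and -5.87 in LEC, where it was not well above background, so no fold is given.

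The receptors divided between the populations. Scarb1, which encodes the HDL receptor SR-B1, read 1.39 in FRC, 2.33 in LEC and 6.38 in BEC (chr5:125757658-125757717, minus strand). BEC stood apart, while LEC and FRC were 1.92-fold from each other. BEC exceeded FRC by 4.99 in log2 units. The LEC minus BEC difference was -4.05, and 94 of 18322 genes lay further toward BEC. Vldlr, the VLDL receptor, which binds triglyceride-rich particles, ran the other way. Vldlr probe 1 (chr19:27324042-27324101, plus strand) read 3.72 in FRC, 1.74 in LEC and 0.12 in BEC. Probe 2 (chr19:27328369-27328428, plus strand) read 1.00, 0.02 and -1.36. Both probes gave the order FRC, LEC, BEC from high to low. FRC was 3.94-fold above LEC by probe 1, just under the threshold, and 12.1-fold above BEC. The difference was smaller by probe 2, at -0.99 for LEC minus FRC and -2.36 for BEC minus FRC.

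**Figure D2:**
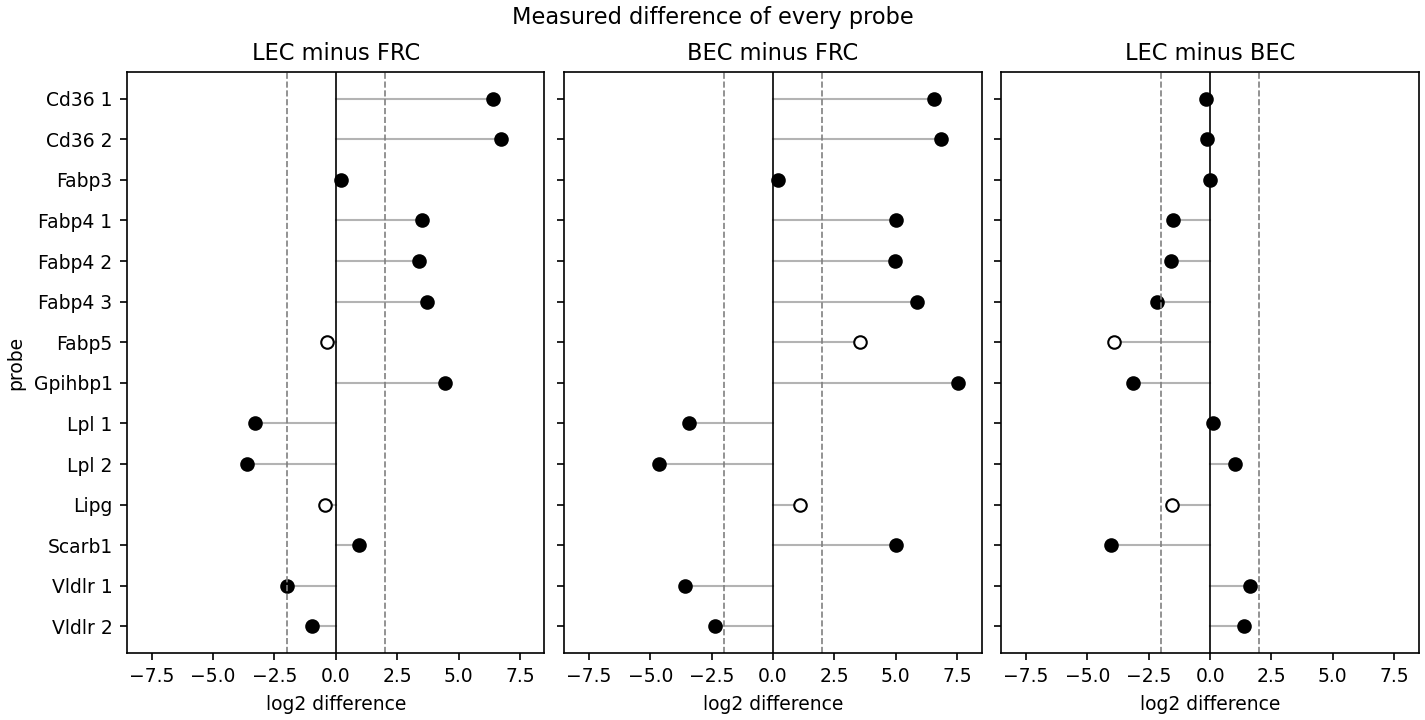
Measured log2 difference (horizontal axis) of every probe of the 9 genes (vertical axis) in the 3 comparisons; each point is 1 probe on a pair of arrays, with no replicate error. Points of the same gene fall on the same side of 0 in every panel: Cd36, Fabp4 and Gpihbp1 to the right of 0 in both comparisons with FRC, Lpl and Vldlr to the left.

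Probes of the same gene gave the same sign in 12 of 12 gene and comparison pairs and the same side of the 4-fold threshold in 11 of 12. The exception was Fabp4 between LEC and BEC. The widest gap between probes of a gene was 1.23, and the smallest 0.06.

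In LEC against FRC, the comparison of lymphatic lining and fibroblasts, 4 of the 7 genes that could be compared were at least 4-fold apart. Across all 18440 genes compared, 10.8% were. Cd36, Fabp4 and Gpihbp1 were higher in LEC (4.89% of all genes were), and Lpl was higher in FRC (5.93% of all genes were). Fabp5 and Lipg were not well above background on either array and were not compared. The median difference of the 7 genes was 0.94, against 0.02 for all genes. All 7 were well above background on both arrays, and among all genes of which that was true 9.52% were 4-fold apart.

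In BEC against FRC, all 9 genes could be compared and 7 were at least 4-fold apart, where 14.2% of 18830 genes were. Cd36, Fabp4, Fabp5, Gpihbp1 and Scarb1 were higher in BEC (6.59% of all genes), Fabp5 as a bound, and Lpl and Vldlr were higher in FRC (7.57% of all genes). The median difference of 2.67 is the Fabp5 bound itself, so it is no measured centre of the 9 genes. Fabp5 and Lipg entered through the BEC array alone and could only be higher there or level. Where a gene had to be well above background on both arrays, 6 of 7 were 4-fold apart, against 12.2% of all genes.

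In LEC against BEC, the comparison of the endothelial linings, 3 of 9 genes were at least 4-fold apart, where 6.78% of 18322 genes were. Scarb1, Gpihbp1 and Fabp5, the last as a bound, were higher in BEC (3.38% of all genes), and none of the 9 was higher in LEC by that much (3.39% of all genes). The median was -0.17, against -0.07 over all genes. Here too Fabp5 and Lipg entered through BEC alone and could only be higher there or level, and with both arrays required 2 of 7 genes were 4-fold apart, against 6.03% of all genes. The values nearest the threshold on either side were Vldlr between LEC and FRC, at -1.98, and Fabp5 between LEC and BEC, at -2.53. With each level divided by the array's spike-in slope, a setting chosen after seeing the data, Lpl reached -4.51 for LEC minus FRC and -4.43 against FRC in BEC, and Vldlr -2.79 and -4.39, so Vldlr then passed 4-fold in LEC too, as it did with median centring (-2.01). The Fabp4 difference of LEC from FRC fell to 2.44 with that setting and its LEC minus BEC difference became -2.38, past 4-fold. Gpihbp1 was at 8.26 for BEC minus FRC with the same setting and Cd36 at 7.16. With normexp background correction the Fabp5 bound no longer passed, at 1.14 and -1.16 against FRC and LEC. The sign of the small LEC minus BEC difference of Cd36, Fabp3 and Lpl was not the same under every setting.

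Fewer cells of a type that carries a transcript and less of it per cell cannot be told apart in sorted bulk RNA.

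**Figure D3:**
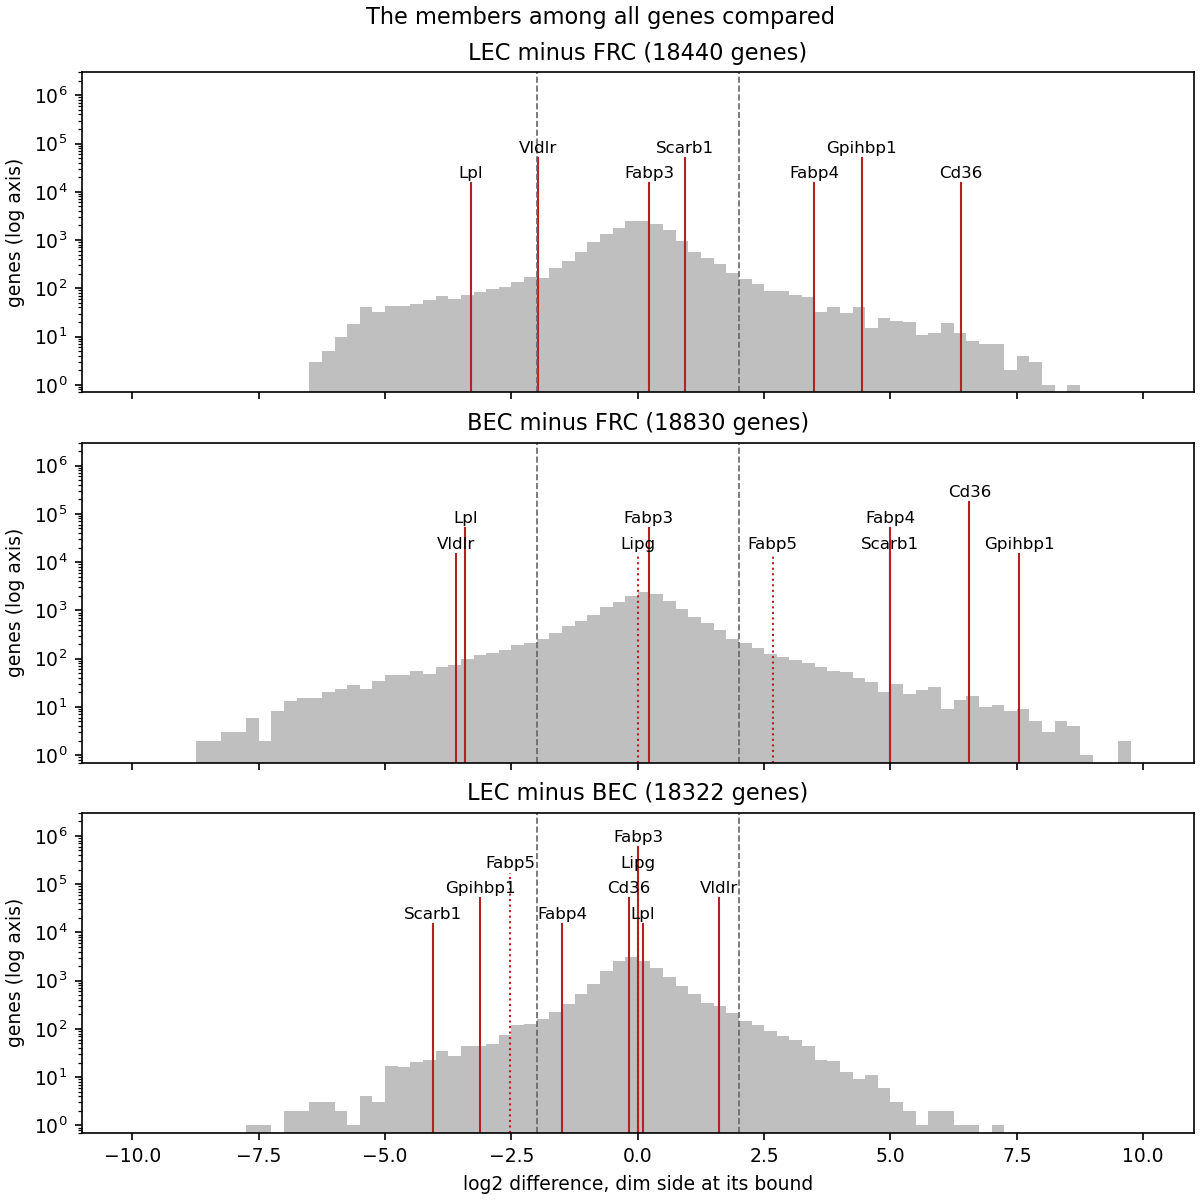
Number of genes (vertical axis, log scale) by log2 difference (horizontal axis, dim arrays at their bound) in the 3 comparisons, with the position of each of the 9 genes marked. The BEC minus FRC panel holds 18830 genes, of which 26 lie to the right of Gpihbp1 at 7.55, and in the LEC minus FRC panel Cd36 lies at 6.39.

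For the 6 genes that were well above background on all arrays and spanned at least 4-fold, the most alike genes of the array were sought by centring each gene's 3 log2 levels on their mean. Likeness is the largest of the 3 gaps between centred levels, so it rests on 3 arrays and describes them only, over 15594 genes. Nearest to Cd36 were Scarf1 (0.05), a scavenger receptor of endothelial cells, Mmrn2 (0.14), an endothelial matrix protein, and Gimap6 (0.16), and 15 genes lay within 0.5. Nearest to Fabp4 were Cav2 (0.09), a caveolin, Cmtm8 (0.11) and Tm6sf1 (0.15), with 37 genes within 0.5. Gpihbp1 had the fewest near profiles, 6 within 0.5, led by Tinagl1 (0.20), Ctla2b (0.31) and Ctla2a (0.32). Scarb1 lay nearest to Slc52a3 (0.11), a riboflavin transporter, AU021092 (0.18) and Aqp1 (0.21), a water channel, with 17 genes within 0.5.

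The FRC-high patterns had more near neighbours by this measure, but they also spanned less. BEC minus FRC was -3.41 for Lpl and -3.60 for Vldlr, against 7.55 for Gpihbp1, 6.56 for Cd36 and 4.99 for Fabp4 and Scarb1. The window of 0.5 was the same for every span, and the part of span in these counts was not tested. Lpl lay nearest to Plxdc2 (0.05), Slc6a13 (0.06) and Ephb3 (0.07), with 123 genes within 0.5. Vldlr lay nearest to Ccdc80 (0.02), Fzd7 (0.07), a Wnt receptor, and Ang2 (0.11), with 112 genes within 0.5. Fabp5 and Lipg were not paired, and among the other 7 genes the closest pair was Lpl and Vldlr, 0.95 apart, followed by Fabp4 and Gpihbp1 at 1.39 and Cd36 and Fabp4 at 1.49.

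The other genes of these pathways were read from 5 lists. Of the 21 genes of fatty acid transport, binding and activation, 15 could be compared. In LEC against FRC the count at least 4-fold apart was 0 higher in LEC and 1 in FRC (4.89% and 5.93% of all genes), with a median of 0.24. In BEC against FRC it was 1 in each direction (6.59% and 7.57% of all genes), with a median of 0.10. Between LEC and BEC it was 0 in either direction (3.39% and 3.38% of all genes), with a median of 0.22. With the spike-in slope the first pair of medians turned to -0.11 and -0.19, and with the mean over probes that of BEC minus FRC to -0.25. The FRC-high gene was Fabp7, the brain-type binding protein, which read 0.42 in FRC, -3.85 in LEC and -4.07 in BEC. Its FRC level was 19.2-fold over LEC. The probes of the transporter gene Slc27a1 fell on different sides of the threshold. The probe that represents it gave -0.33 for LEC minus FRC. Its other probe gave -2.02, with readings of 1.39 in FRC, -0.64 in LEC and -0.36 in BEC. The BEC-high gene was Slc27a3, a fatty acid transport protein, with readings of -1.36, -0.59 and 1.18 in the order FRC, LEC, BEC. The acyl-CoA synthetases and carnitine shuttle genes of this list that could be compared did not pass 4-fold in any comparison.

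Of 22 lipases and lipase regulators, 2 of the 19 compared were higher in LEC (4.89% of all genes) and 4 in FRC (5.93%), with a median of -0.08 that turned to between 0.05 and 0.08 under 5 of the other settings. Against BEC, FRC was higher for 6 of 18 (7.57% of all genes) and BEC for 3 (6.59%), with a median of -0.61. Between LEC and BEC, 4 of 19 were higher in LEC (3.39% of all genes) and 1 in BEC (3.38%), with a median of 0.35. Mgll, the monoacylglycerol lipase, followed the order of Fabp4, with readings of 2.80, 5.16 and 6.71. Lipe, the hormone-sensitive lipase, stood apart in BEC, at -1.32, -0.81 and 2.19, which is 11.4-fold over FRC and 7.95-fold over LEC. Pcsk6 and Pcsk5, proprotein convertases that can cleave lipases of this family, were highest in FRC, at 5.01 and 3.36, and lower in BEC by 41.2-fold and 17.0-fold. Pcsk6 was 9.87-fold and Apoc1, an apolipoprotein that restrains lipolysis, 8.83-fold higher in FRC than in LEC.

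Cel and Pnlip, digestive lipases of the pancreas, were the largest LEC over BEC differences in that list, at 9.46-fold and 5.88-fold. Cel read 7.14 in FRC, 7.37 in LEC and 4.13 in BEC. Pnlip read 8.71, 8.60 and 6.04. A list of 18 other pancreatic acinar enzyme genes, chosen after these values were seen, had 16 genes on the array, all well above background on all 3 arrays. Their summed signal over the 75th percentile was 4850 in FRC, 5014 in LEC and 728 in BEC. All 16 were at least 4-fold higher in FRC than in BEC (median BEC minus FRC -2.85) and all 16 in LEC than in BEC (median 2.81), with a median of -0.01 between LEC and FRC. The part of this signal in the values of Cel and Pnlip was not tested.

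The 25 lipoprotein and scavenger receptors had a median LEC minus FRC difference of 0.94, with 8 of 22 compared higher in LEC (4.89% of all genes) and 2 in FRC (5.93%). For BEC minus FRC, 7 of 21 were higher in BEC (6.59% of all genes) and 2 in FRC (7.57%). The median there was 0.84, which turned to -0.05 when dim genes were not filtered out. Between LEC and BEC 4 of 22 were higher in LEC (3.39% of all genes) and 0 in BEC (3.38%), with a median of 0.22. The scavenger receptor Stab1 read -1.99 in FRC, 5.71 in LEC and 4.38 in BEC. Marco, another, read 0.59, 7.57 and 3.17, and the LEC over FRC ratios were 208-fold and 126-fold. Scarf1 read -2.98, 3.32 and 3.56, and was 92.8-fold higher in BEC than in FRC. Lrp1, the remnant receptor, had the pattern of Lpl, with readings of 4.22, -0.50 and -0.77. Cubn, an endocytic receptor, was also FRC-high, at -0.40, -3.35 and -3.40. Msr1 was 26.7-fold and Lrp2 at least 26.2-fold above BEC in LEC.

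Apolipoproteins, lipid transfer and efflux (17 genes) had 2 of 16 higher in LEC (4.89% of all genes) and 3 in FRC (5.93%), with a median of -0.46. In BEC against FRC 2 of 15 were higher in BEC (6.59% of all genes) and 3 in FRC (7.57%), with a median of 0.01 that turned to between -0.73 and -0.10 under 3 of the other settings. Between LEC and BEC it was 1 of 15 in each direction (3.39% and 3.38% of all genes), with a median of 0.31. Pltp, the phospholipid transfer protein, read -0.23, -2.85 and 2.97, so BEC exceeded LEC by 56.4-fold. Abcg1, a cholesterol exporter, was at -1.76, 0.80 and 2.76, in the order of Fabp4. Apod read 1.08 in FRC, -3.04 in LEC and -3.66 in BEC. Apoa4 was 7.11-fold higher in FRC than in BEC. Mttp, which loads lipid onto nascent lipoproteins, was well above background only in LEC, at -1.19, and was at least 8.88-fold over FRC and at least 9.13-fold over BEC.

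Among 27 regulators of endothelial and adipose fatty acid uptake, LEC exceeded FRC for 6 of 27 (4.89% of all genes) and FRC exceeded LEC for 1 (5.93%), with a median of 0.36 that turned to -0.23 with the spike-in slope. BEC exceeded FRC for 6 of 27 (6.59% of all genes) and the reverse held for 2 (7.57%), with a median of 0.32. LEC exceeded BEC for 1 of 26 (3.39% of all genes) and the reverse held for 6 (3.38%), with a median of -0.25. Tcf15, a transcription factor that with Meox2 is known to raise Cd36 and Fabp4 in heart endothelium, read -3.15 in FRC, 0.24 in LEC and 4.16 in BEC. Flt1, a receptor of VEGF-B, read -1.13, 2.47 and 6.36, and Aplnr, the apelin receptor, -3.40, -0.24 and 4.14. These 3 had the order of Gpihbp1. A further Flt1 probe was near background throughout, at -5.18, -5.11 and -4.16, and well above it only in BEC. Nrp1, the co-receptor, was lowest in LEC by every probe. Its brightest probe read 2.40 in FRC, -1.15 in LEC and 2.37 in BEC. Its other probes gave a BEC minus FRC difference of -0.87 and 1.16. Ppargc1b was 8.08-fold higher in LEC than in BEC. Ppara, at least 4.32-fold, and Rxrg, 4.10-fold, were higher in FRC than in BEC.

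**Figure D4:**
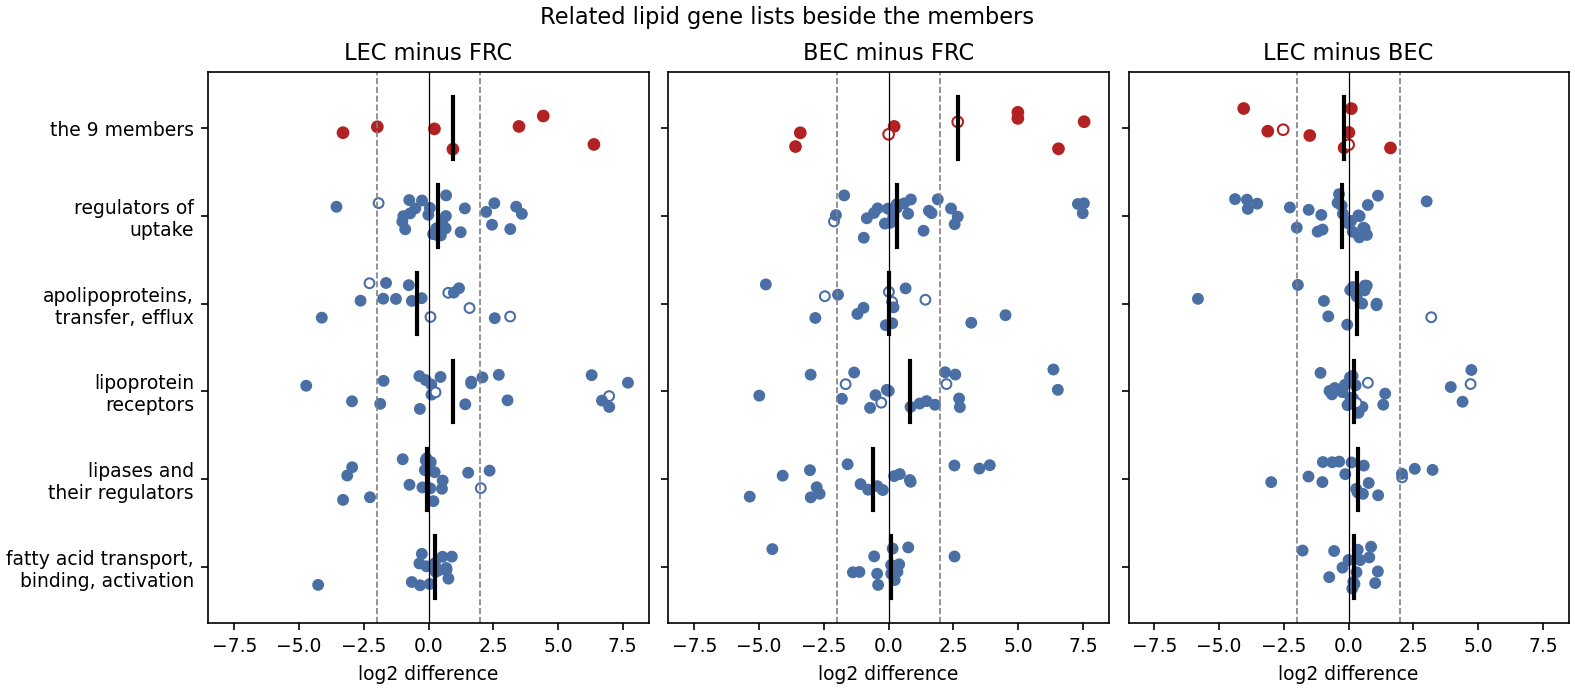
Log2 difference (horizontal axis) of each compared gene of the 5 related lipid gene lists and of the 9 genes (vertical axis) in the 3 comparisons; each point is 1 gene, dim arrays are at their bound, and there is no replicate error. The median of the 9 genes is 2.67 for BEC minus FRC, which is the Fabp5 bound, and the list medians there run from -0.61 to 0.84.

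Several of the 9 genes are also expressed by fat cells and macrophages, so markers of other cells that a sort could hold were read too. The adipocyte list has 12 genes, 10 of them on the array, and 9, 7 and 9 were well above background in FRC, LEC and BEC. Their summed signal over the 75th percentile was 3.87 in FRC, 7.41 in LEC and 42.8 in BEC. Most of the LEC and BEC sums came from Cfd and Thrsp alone, so the sums do not describe the list. The median levels were -2.28, -1.04 and 0.46. By 4-fold, BEC exceeded FRC for 5 of 9 (6.59% of all genes) and the reverse held for 1 (7.57%), with a median of 2.54. For LEC against FRC, 3 of 9 were higher (4.89% of all genes) and 1 lower (5.93%), with a median of 1.38. For LEC against BEC, 0 of 9 were higher (3.39% of all genes) and 3 lower (3.38%), with a median of -1.78.

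All 9 compared adipocyte genes read lower in LEC than in BEC, by -3.73 to -0.06 in log2 units, 2 of them as bounds. Relative to FRC the list leaned toward BEC, with 5 of 9 past 4-fold in that direction and 1 in the other. The genes named next were picked after their values were seen and do not stand for the list. Adipoq, the adiponectin gene, read 0.38 in FRC, -0.66 in LEC and 0.80 in BEC, a much narrower range than that of Fabp4. Plin1, the coat protein of the fat droplet, was highest in FRC at -0.23, was -3.87 in BEC, and was not well above background in LEC. Lep, the leptin gene, was not well above background on any array. Cfd read -1.02, 1.73 and 3.98, and Thrsp -2.48, 0.52 and 4.25. The part of fat cell RNA in the levels of Cd36, Fabp4 and Lpl was not tested.

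Of 15 macrophage markers, 8 were well above background in FRC, 12 in LEC and 9 in BEC, with summed signals of 13.7, 18.2 and 9.31. Their median log2 difference from FRC was 0.84 in LEC and 0.12 in BEC, and LEC minus BEC gave 1.20. By 4-fold, LEC exceeded FRC for 1 of 13 (4.89% of all genes) and the reverse held for 0 (5.93%). BEC exceeded FRC for 0 of 12 (6.59% of all genes) and the reverse held for 1 (7.57%). LEC exceeded BEC for 2 of 12 (3.39% of all genes) and the reverse held for 0 (3.38%). Itgam and Cd163 were not well above background on any array. Adgre1, a macrophage surface receptor gene, was at -2.77 in LEC and -4.07 in BEC and not well above background in FRC. Mrc1 was brightest in LEC, at 0.96, as were Marco and Msr1, which are in the receptor list and not in this one. Of 11 lymphocyte markers, 9, 10 and 10 were well above background, with summed signals of 2.85 in FRC, 6.55 in LEC and 12.9 in BEC. By 4-fold, BEC exceeded FRC for 4 of 10 (6.59% of all genes) and the reverse held for 0 (7.57%), with a median of 1.53. LEC exceeded FRC for 2 of 10 (4.89%) and the reverse held for 0 (5.93%), with a median of 0.49. LEC exceeded BEC for 0 of 10 (3.39%) and the reverse held for 2 (3.38%), with a median of -0.79. Ptprc, which encodes the CD45 that was gated out, read -2.36, -1.57 and 0.23, again in the order of Gpihbp1. Of 9 pericyte and smooth muscle markers, all were well above background on every array, with summed signals of 114 in FRC, 71.4 in LEC and 98.5 in BEC. By 4-fold, FRC exceeded LEC for 3 of 9 (5.93% of all genes) and the reverse held for 1 (4.89%). FRC exceeded BEC for 3 of 9 (7.57%) and the reverse held for 1 (6.59%). LEC exceeded BEC for 1 of 9 (3.39%) and the reverse held for 2 (3.38%). The part of these cells in the values of the 9 genes was not tested.

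**Figure D5:**
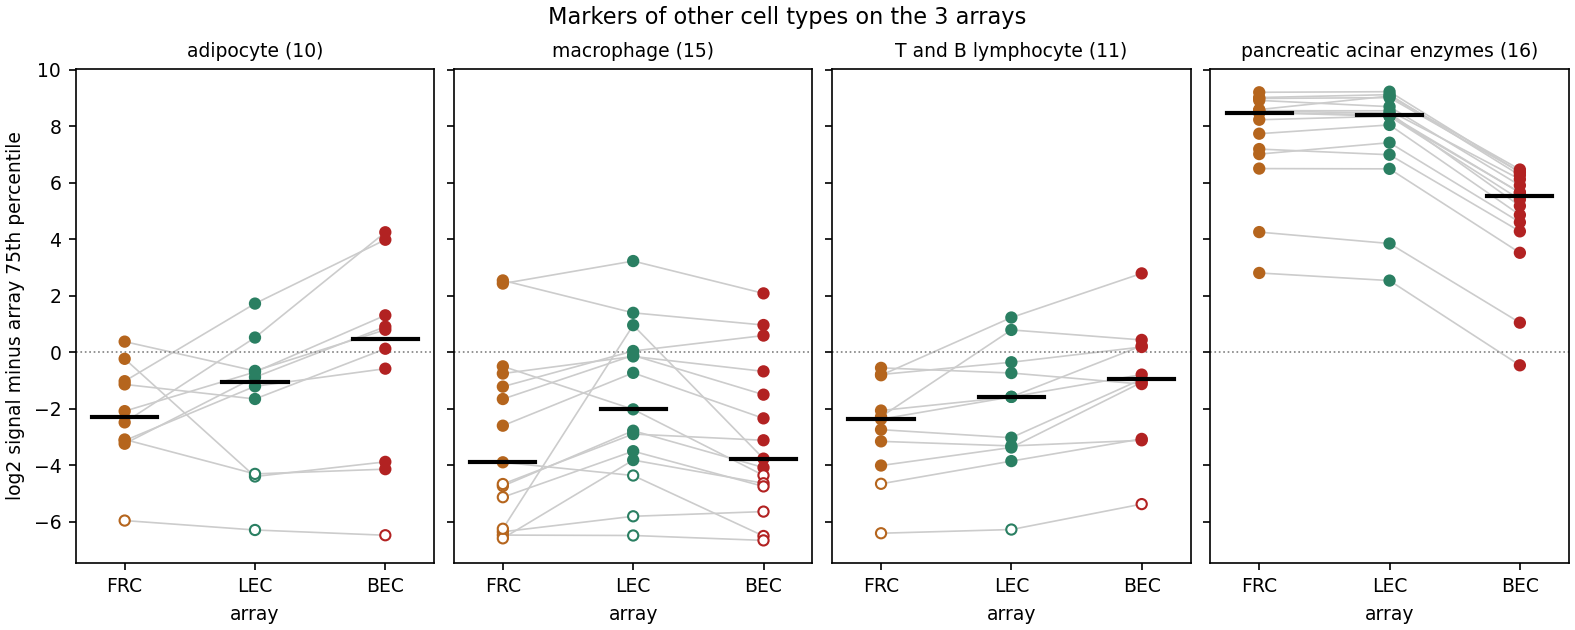
Log2 level (vertical axis: signal minus the array's 75th percentile) of each marker of other cell types on the FRC, LEC and BEC arrays (horizontal axis); each line joins 1 gene's values on the 3 arrays. The 10 adipocyte markers spread widely, with Lep lowest on every array, while the 16 pancreatic acinar enzyme genes all lie lower in BEC than in FRC and LEC.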

How the data were processed

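Total RNA of the sorted cells was amplified in 1 round and labelled with a single dye, per the labels' protocols. The deposited scanner files hold a background-subtracted, detrended intensity per spot, unscaled between arrays, which Agilent Feature Extraction 10.7.3.1 wrote, per the file headers. They give 1 slide for the 3 arrays. The authors' deposited value table, also linear intensity, has a floor of 15 and a median of 40.2 in each column, and served as an alternative. No source used here names its scaling between arrays, but its differences were nearly those of quantile normalization. For Cd36, LEC minus BEC was 0.09 with both. The table has no direction or centring to settle.

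Outlier spots (115, 102 and 82 of 43379 on the FRC, LEC and BEC arrays) were left out, spots of a probe averaged, and log2 intensity taken minus the array's 75th percentile (387, 268 and 361 in intensity units). The probe with the highest mean represented its gene. Gene names were updated through RefSeq accessions (table of GRCm38.p6, whose positions were not used), with 18208 of 28084 names matched. Positions are those of the files on mm9, and no exon or UTR annotation was used here. Comparison required 1 probe well above background on at least 1 of the arrays. On a dim array the probe took the lowest signal well above background, or its own value if larger, and the fold is then a lower bound ("at least"). The comparison code was run on simulated levels with known shifts set past the threshold. This checks the code and not the differences reported here. Python 3.11.15, pandas 2.3.3 and limma 3.58.1 (normexp alternative) were used.

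The 9 genes and the gene lists were chosen with earlier results of these data known. Named genes were the 9 genes with every probe, the 2 largest differences past 4-fold per list, comparison and direction, and the 3 nearest profiles of each gene that varied. Slc27a1 was named besides, for the disagreement of its probes. Marker lists of other cells are given as counts and sums, and the marker genes named singly were chosen after their values were seen. Of these, 1 gene is not reported here.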

Additional observations from a re-analysis of the deposited data

How the results depend on the processing

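In all, 10 alternatives were run on scaling, background correction, source of the values, probe choice, dim probes and threshold, 1 of them (each log2 level divided by the array's spike-in slope) chosen after seeing the data. Quantile normalization and the authors' values gave nearly the same differences, so they are not separate checks. Some alternatives could not change a value. For a gene measured on both arrays, dropping the dim filter or requiring both arrays leaves the difference as it was. Averaging over probes does the same where such a gene has 1 probe. Over 25 gene results and 221 alternative values, with those fixed values counted in, 0 changed direction past 4-fold and 216 kept their side of the threshold. The other 5 were Vldlr for LEC minus FRC, at -2.01 with median centring and -2.79 with the slope, Fabp4 for LEC minus BEC, at -2.38 with the slope, and Fabp5 with normexp, at 1.14 against FRC and -1.16 as LEC minus BEC. Among differences under 4-fold, the LEC minus BEC value of Cd36 ran from -0.76 to 0.09, of Fabp3 from -0.07 to 0.24 and of Lpl from -0.09 to 0.56, so their sign is not settled. With a 2-fold threshold 5 of the 9 genes, not 3, were apart between LEC and BEC. Of all 18322 genes, 2009 were then higher in LEC and 1863 in BEC, against 622 and 620 at 4-fold. Summed over the comparisons, the apolipoprotein, transfer and efflux list had 12 differences past 4-fold, 19 with the slope and 5 with normexp. A gene could count once per comparison in these sums. Counts over all genes also moved by more than 1.5 times. With normexp, 560 genes were higher in LEC and 660 in FRC (902 and 1094 in the values above), 693 in BEC and 854 in FRC (1240 and 1426), and 300 in LEC and 325 in BEC (622 and 620). With the slope the first pair was 1380 and 1389. Without the filter on dim probes the last pair was 1019 and 875, and a 2-fold threshold gave 2397 and 2459, 3157 and 3104, and 2009 and 1863. No paired analysis was possible because each population has 1 array, and for the same reason no replicate could be left out. Differences between animals, sorts and amplifications are therefore unmeasured, and signal over background limits Fabp5 and Lipg.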
